A study of Mus musculus with 16 samples.

Results

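The RNA comparison described here sets mouse cortex that lacks both Fmr1 and Cpeb1 (double knockout) against cortex that lacks Fmr1 alone. It rests on 4 of the 16 libraries of the series, chosen by their titles: RNA-seq of the double knockout, 2 libraries, and of the Fmr1 knockout, 2 libraries. Both genotypes thus lack Fmr1, and only Cpeb1 differs by design. All animals were 28 to 35 days old, on the background that the labels write as FVB.129P2-/Pde6b+ Tyrc-ch //AntJ, and the knockouts are named by gene with no further allele. The tissue was whole cerebral cortex, and the RNA was cytoplasmic RNA left after removal of rRNA. The WT and Cpeb1 knockout libraries, 2 of each, gave the effect of Cpeb1 loss in mice that keep Fmr1, and the ribosome footprints of the same genotypes gave a second readout. The labels do not say whether libraries 1 and 2 came from separate animals, so the tests measure the spread between libraries, which may be technical.

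FMRP, the product of Fmr1, is an RNA-binding protein that associates with translating ribosomes on many neuronal mRNAs, and its loss underlies fragile X syndrome. CPEB1 binds a U-rich element in the 3′ part of mRNAs and recruits the machinery that lengthens or removes the poly(A) tail, through which it holds some mRNAs silent and lets others be translated. Both proteins are present at synapses. Loss of Cpeb1 in mice that lack Fmr1 has been used to ask whether removing the one protein offsets the loss of the other, and the comparison addresses that question at the level of mRNA.

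The double knockout libraries held 8365060 and 6148270 expected counts, and the Fmr1 knockout libraries 9998733 and 6420251. Levels are given in CPM, counts relative to the size of the library after TMM scaling. Similarity between libraries did not follow genotype alone: over 13287 genes the log2 CPM of Fmr1 knockout replicate 1 correlated with Cpeb1 knockout replicate 1 at r = 0.9925 and with its own second replicate at 0.9874. Likewise double knockout replicate 1 stood nearer to WT replicate 1 (r = 0.991) than to double knockout replicate 2 (r = 0.9827). Across those genes the difference between double and Fmr1 knockout in replicate 1 correlated with the difference between Cpeb1 knockout and WT in replicate 1 at r = -0.563, and at -0.0222 in replicate 2. The genes are not independent points, no label names a batch, and what makes these libraries alike was not tested. Each result below is therefore given by library.

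The targeted genes came first. Fmr1 RNA was at 25.9 and 18.4 CPM in the Fmr1 knockout and at 25.2 and 21.5 CPM in the double knockout, against 109 and 91.3 CPM in WT. Both genotypes of the comparison were thus low in Fmr1 RNA to a like degree. Fmr1 footprints had a log2 difference of -0.42 ± 0.16 (SE), lower in the double knockout (edgeR adjusted p = 0.243). Cpeb1 (NCBI gene 12877, chr7:81347026-81458001 on GRCm38.p6, the mm10 build) was at 36.5 and 27.6 CPM in the Fmr1 knockout and at 18.5 and 16.1 CPM in the double knockout. Its groups did not overlap, and the log2 difference was -0.89 ± 0.18 (SE) with an adjusted p of 0.206 (edgeR quasi-likelihood test, Benjamini-Hochberg adjustment over 13287 genes). In the authors' deposited table the same gene had a log2 change of -0.477 with an adjusted p of 0.0158. Cpeb1 footprints, counted on the same lysates, were at 34.4 and 36.7 CPM in the Fmr1 knockout and 7.73 and 7.69 CPM in the double knockout, and fell by 2.20 on the log2 scale (edgeR adjusted p = 1.08e-06). The targeted genes followed the labels in all 4 libraries.

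Over all genes, 0 of 13287 (0.0%) passed an adjusted p of 0.05 in edgeR, and the smallest adjusted p was 0.206. At an unadjusted p under 0.05 there were 2087 genes, 1022 higher in the double knockout (7.69%) and 1065 lower (8.02%). The double knockout libraries both lay above both Fmr1 knockout libraries for 2700 genes (20.3%) and below them for 3019 (22.7%). DESeq2 on the same counts called 36 of the 3206 genes to which it gave an adjusted p (1.12%), 33 of them higher (1.03%) and 3 lower (0.0936%). The authors' deposited DESeq2 table called 202 of 7189 genes (2.81%), 159 higher (2.21%) and 43 lower (0.598%) in the double knockout, with log2 changes between -0.587 and 0.585 of smaller size than those fitted here. All 36 DESeq2 calls were among those 202. The same libraries gave the authors' values and those of the fits here, so neither is independent support for the other. In edgeR, calls depended on which libraries estimated the spread: 166 genes passed (135 higher, 31 lower) when only the 4 libraries were fitted with replicate number as a term, and 0 passed in that fit without the term, where 1441 genes had an unadjusted p under 0.05. Calls also varied with single libraries. The count without double knockout replicate 2 was 193, without Cpeb1 knockout replicate 1 it was 50, without Cpeb1 knockout replicate 2 it was 51, and without Fmr1 knockout replicate 1 it was 1.

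**Figure D1:**
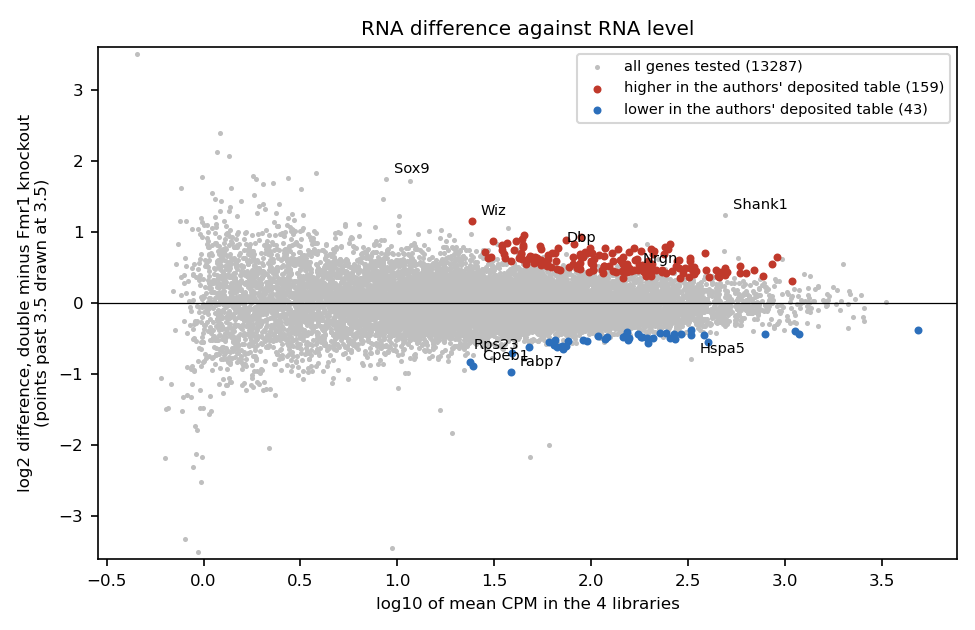
Each point is 1 of 13287 genes, with the log10 of its mean CPM over the 4 libraries on the x axis and its fitted log2 difference (double minus Fmr1 knockout) on the y axis. The 159 genes higher (red) and 43 lower (blue) in the authors' deposited table lie along the outer edge of the cloud; points past 3.5 are drawn at 3.5.

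The 202 genes of the authors' deposited table were called on the same 4 libraries, so their direction and separation here are set by that choice and are given as a description. All 202 had the same direction in the fit and in both replicate numbers, and the groups did not overlap for 158 of the 159 higher and for 43 of the 43 lower genes (20.3% and 22.7% of all genes). The median log2 difference of the 159 was 0.735 in replicate 1 and 0.397 in replicate 2. The 43 lower genes had medians of -0.496 and -0.484, so the lower genes differed alike in both numbers while the higher ones differed more in replicate 1. The higher genes were also longer, with a median deposited length of 2634 nt against 1230 nt for the lower and 1434 nt for all genes tested. These lengths are coding lengths, since 99.3% of the whole-number lengths were multiples of 3. In footprints of the same genotypes, 153 of 157 higher and 38 of 43 lower genes had the same direction, with median log2 differences of 0.187 and -0.243. At an unadjusted p under 0.05 these were 63 and 22 genes (edgeR, against 7.6% higher and 8.25% lower of all genes). Of the 200, 5 passed an adjusted p of 0.05 (edgeR, background 0.334%). The share of all genes with 1 direction in both assays was not computed. The footprints were counted on the same lysates, so they are not independent support.

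The genes with higher RNA in the double knockout are described first. Sox9 (NCBI gene 20682), a transcription factor of glial progenitors and astrocytes, was at 2.91 and 5.45 CPM in the Fmr1 knockout and at 15.2 and 11.3 CPM in the double knockout. The double knockout values lay above the 8.20 and 9.20 CPM of WT as well, and the log2 difference from the Fmr1 knockout was 1.74 ± 0.29 (SE). Fbrs had 8.63 and 10.9 CPM against 20.6 and 18.1 CPM in the double knockout, a log2 difference of 1.01 ± 0.20. Nbl1, which encodes a secreted BMP antagonist, had 12.5 and 10.4 against 22.3 and 21.2 CPM. Ltbp4, a binding protein of latent TGF-beta in the matrix, had 23.2 and 30.1 against 47.4 and 46.8 CPM. In each of these genes both double knockout libraries lay above both Fmr1 knockout libraries. The rule that named them required this, and it held for 20.3% of all genes.

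Other genes with higher RNA had various roles. Arhgap33, a GTPase-activating protein with a role in dendritic spines, was at 122 and 152 CPM in the Fmr1 knockout and 228 and 220 CPM in the double knockout, a log2 difference of 0.73 ± 0.13 (SE). Neurl1a, a ubiquitin ligase, had 62.5 and 83.3 against 122 and 112 CPM. Its paralog Neurl1b had 27.3 and 33.8 against 64.6 and 49.2 CPM. Dact3, an inhibitor of Wnt signalling, had 88.8 and 117 against 179 and 167 CPM. Of these, Arhgap33, Dact3 and both Neurl1 genes were also called in the authors' deposited table, with adjusted p-values of 0.00017, 0.000135, 0.0013 and 0.0013. That table ranked Dlgap3 first by size among well-counted genes (log2 change 0.585, adjusted p = 0.000135), and placed Wiz, a zinc-finger partner of histone methyltransferases, next among those not named above with 0.566 (adjusted p = 0.00355). Wiz had 13.3 and 17.1 CPM in the Fmr1 knockout and 37.5 and 28.6 CPM in the double knockout, and its WT level was 29.6 and 31.6 CPM.

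Among the lower genes, Fabp7 (NCBI gene 12140), a fatty-acid binding protein of astrocytes and radial glia, had 62.6 and 39.6 CPM in the Fmr1 knockout and 29.2 and 22.7 CPM in the double knockout. The groups did not overlap, which the naming rule required and which held for 22.7% of all genes. The log2 difference was -0.97 ± 0.16 (SE), and the authors' deposited DESeq2 table gave -0.587 with an adjusted p of 0.00105. Fabp7 footprints had a log2 difference of 0.14 ± 0.26. The astrocyte genes Sox9 and Fabp7 thus lay on opposite sides in RNA. Tmem184c was at 88.4 and 85.2 CPM against 56.0 and 54.6 CPM, and Gpr22, an orphan receptor, at 91.3 and 70.6 against 52.0 and 53.0 CPM. Serpini1, the neuronal protease inhibitor neuroserpin, was at 307 and 289 against 217 and 207 CPM. In the authors' deposited table these had adjusted p-values of 0.00556, 0.0105 and 0.00579. The footprint differences of Tmem184c, Gpr22 and Serpini1 had the same direction, at -0.46, -0.44 and -0.29 on the log2 scale, with edgeR adjusted p-values of 0.130, 0.139 and 0.166.

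Further genes with lower RNA had various roles. Snrpe, a core protein of splicing particles, had 22 and 23.7 CPM against 14.4 and 12.7 CPM in the double knockout. Ptges3, the HSP90 co-chaperone p23, had 96.3 and 71.4 against 69.1 and 48.7 CPM. Rps23, a ribosomal protein, had 33.0 and 22.9 against 18.6 and 15.0 CPM, and Itgb1bp1, an integrin-binding protein, 35.7 and 34.6 against 22.6 and 22.6 CPM. Zfp943, named from the authors' deposited table (log2 change -0.438, adjusted p = 0.0305), had 34.0 and 26.6 against 21.5 and 12.6 CPM. Pcdha6 had the lowest unadjusted p of the lower genes that met the naming rule. It had 96 and 157 counts in the Fmr1 knockout and 0 and 22 counts in the double knockout. It is a member of the protocadherin alpha cluster, whose genes share their 3′ exons, so its counts depend on how shared reads were divided and its value is uncertain.

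**Figure D2:**
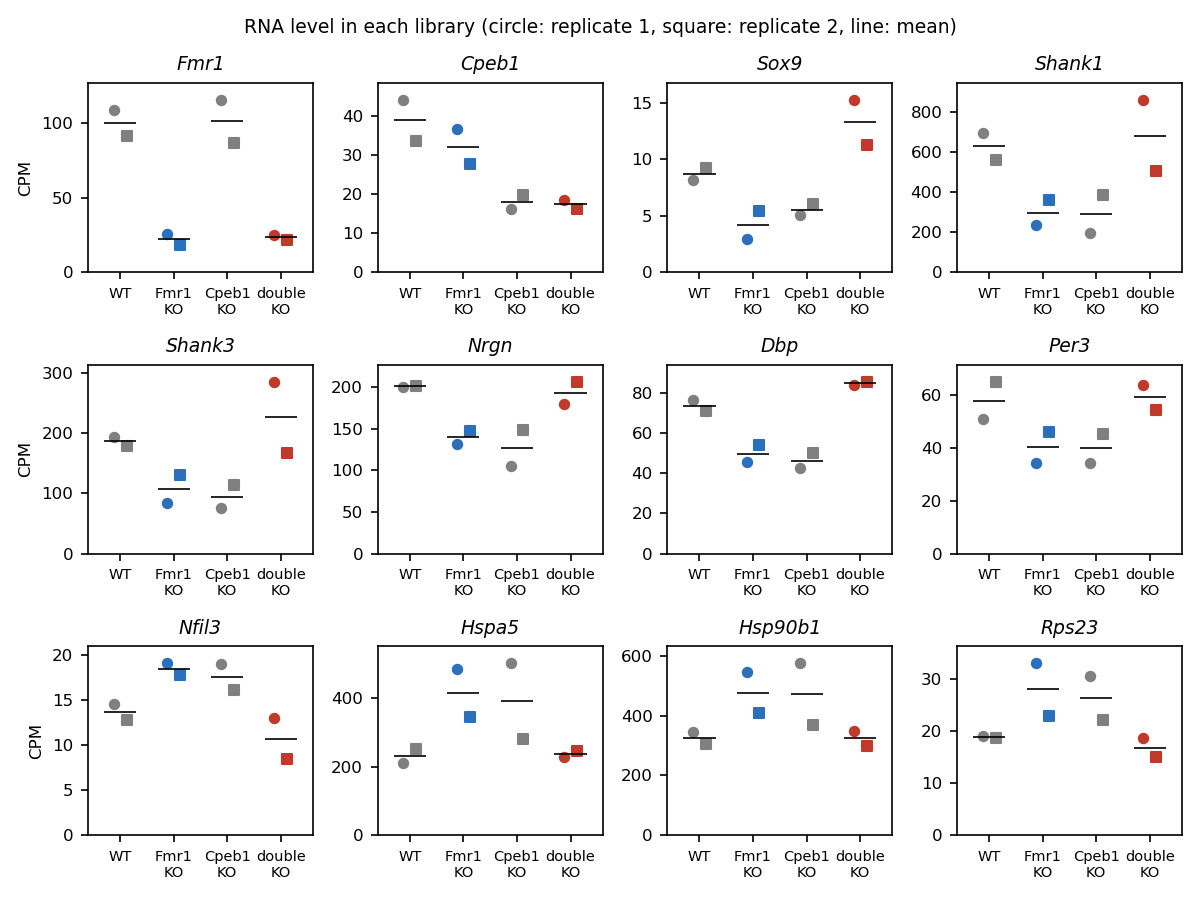
RNA level in CPM of 12 genes in each of the 8 RNA-seq libraries, with circles for replicate 1, squares for replicate 2 and a line at each mean. Fmr1 is low in both Fmr1-deficient genotypes and Cpeb1 in both Cpeb1-deficient ones, while Shank1, Nrgn, Dbp, Hspa5 and Rps23 have double knockout levels nearer to WT than to the Fmr1 knockout.

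Scaffolds of the postsynaptic density, the protein lattice that anchors receptors under excitatory synapses, included many genes that were higher in the double knockout. Of 26 measured, 14 were higher and 2 lower at an unadjusted p under 0.05 (53.8% and 7.69%, against 7.69% and 8.02% of all genes), 18 were higher with no overlap (69.2% against 20.3%), and 7 were higher in the authors' deposited table. The median log2 difference was 0.326, against -0.0242 over all genes, and it was 0.388 in replicate 1 and 0.254 in replicate 2. Shank1 (NCBI gene 243961), a master scaffold of the density, had 232 and 360 CPM in the Fmr1 knockout and 858 and 505 CPM in the double knockout. Shank3, in which mutations cause Phelan-McDermid syndrome, had 84.5 and 131 against 285 and 167 CPM, and Shank2 88.9 and 108 against 180 and 136 CPM. For all 3 SHANK genes the groups did not overlap and replicate 1 of the double knockout was the highest library. Dlgap3, which links PSD-95 to SHANK, had 163 and 205 against 374 and 280 CPM.

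Other scaffold members showed smaller differences. Nrgn encodes neurogranin, a calmodulin-binding protein of dendrites, and had 131 and 148 CPM in the Fmr1 knockout and 180 and 207 CPM in the double knockout (log2 difference 0.47 ± 0.13, SE). Dlg4, which encodes PSD-95, had 492 and 588 against 691 and 745 CPM. Iqsec2, an exchange factor for ARF6, had 141 and 174 against 247 and 223 CPM. Camk2a, a reported CPEB1 target and the main kinase of the density, had 816 and 553 against 1333 and 721 CPM, where the groups overlapped. The authors' deposited table called Nrgn, Dlg4, Iqsec2 and Camk2a higher, with adjusted p-values of 0.0192, 0.0443, 0.0207 and 0.0241. On the TPM scale, which corrects for length, Nrgn was the more abundant mRNA at a mean of 980 TPM in the Fmr1 knockout, against 352 TPM for Dlg4 and 63.9 TPM for Shank1. Of 3 members lower with no overlap (11.5% against 22.7% of all genes), Homer1 and Dlg1 had an unadjusted p under 0.05, with log2 differences of -0.38 ± 0.13 and -0.25 ± 0.10. The genes named in this list apart from Shank1, Dlgap3 and Camk2a were chosen after their values were seen.

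The scaffold values differed with single libraries. Without double knockout replicate 1 the count of higher members was 4 of 26 and the median 0.213; without either Fmr1 knockout library the count was 7, and without double knockout replicate 2 it was 15 with a median of 0.442. Markers of cortical excitatory neurons had the same direction, and Camk2a belongs to both lists. Of 12 markers 5 were higher and 0 lower at an unadjusted p under 0.05 (against 7.69% and 8.02% of all genes), and the count was 1 without Fmr1 knockout replicate 1, 2 without its replicate 2 and 3 without double knockout replicate 1. Their summed level was 2810 and 2520 CPM in the Fmr1 knockout and 3640 and 3160 CPM in the double knockout, and no marker was at 0 in all 4 libraries. Cux2, an upper-layer transcription factor, had 109 and 139 against 233 and 185 CPM. The part of cell composition in the scaffold values was not tested, and in a bulk sample more cells of a type and more RNA per cell cannot be told apart.

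Ribosome footprints gave other values for the scaffolds. The median of the 26 genes was 0.0714 on the log2 scale, 4 were higher at an unadjusted p under 0.05, and 1 passed the adjusted threshold. That gene was Nrgn, whose footprints were at 599 and 584 CPM in the Fmr1 knockout and at 888 and 996 CPM in the double knockout, and rose by 0.67 ± 0.085 (SE; edgeR adjusted p = 0.00612). Shank1 footprints were at 51.9 and 58.3 CPM against 50.8 and 60.4 CPM, a log2 difference of 0.011 ± 0.11 beside the 1.23 ± 0.32 of its RNA. Over the 13027 genes tested in both assays, RNA and footprint differences correlated at r = 0.298 (Spearman 0.394) as a description across genes, which are not independent.

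mRNAs reported to be bound by FMRP, many of them long and synaptic, had a smaller median difference that was larger in replicate 1. Of 86 measured, 20 were higher and 1 lower at an unadjusted p under 0.05 (23.3% and 1.16%, against 7.69% and 8.02% of all genes), 42 were higher and 2 lower with no overlap (48.8% and 2.33%, against 20.3% and 22.7%), and 8 were higher in the authors' deposited table. The median log2 difference was 0.188, with 0.306 in replicate 1 and 0.042 in replicate 2, and it was 0.0768 with a correction for gene length. Agap2, a GTPase that enhances PI3-kinase signalling, had 671 and 749 CPM in the Fmr1 knockout and 1195 and 1026 CPM in the double knockout (authors' deposited table, adjusted p = 0.000135). Bsn, a presynaptic scaffold of both this and the vesicle release list, had 728 and 777 against 1386 and 955 CPM. Without double knockout replicate 1 the count of higher members was 6, without Fmr1 knockout replicate 1 it was 8, and without double knockout replicate 2 it was 35. The list also holds the SHANK and DLGAP genes counted above.

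Chaperones lay on the lower side. Of 21 measured genes of the heat shock and unfolded protein response, 0 were higher and 11 lower at an unadjusted p under 0.05 (52.4% against 8.02% of all genes), 14 were lower with no overlap (66.7% against 22.7%), and 2 were lower in the authors' deposited table. The median log2 difference was -0.351, with -0.503 in replicate 1 and -0.192 in replicate 2. The count of lower members was 5 without double knockout replicate 1, and also 5 without Fmr1 knockout replicate 1. The 11 comprised folding proteins of the endoplasmic reticulum (Hsp90b1, Hspa5, Pdia4, Pdia6, Calr and Canx) and of the cytosol and mitochondria (Hspa8, Hsp90aa1, Hsph1, Hspd1 and Hspe1). Genes of the first set are textbook targets of ATF6, which acts through the ER stress response element, so their promoters are shown.

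The 250 bases before the annotated start were searched for that element (CCAAT, then 9 bases of any kind, then CCACG) on both strands, in RefSeq promoters of GRCm38.p6. It was found for 5 of the 18 matched genes of the list, namely Hspa5, Hsp90b1, Pdia6, Calr and Canx, and in 0.113% of all 32851 promoters. The list holds textbook targets of this element, so its larger share is partly built in. The first share counts genes and the second counts promoters. All 5 were among the 11 lower genes. Pdia4, Hsph1, Hspd1 and Hspe1 were also among the 11 and lacked the element in this window. Hspa8 and Hsp90aa1 had no matched promoter and were not searched. Capitals mark the element, which Hsp90b1 carries once on each strand, and none of the copies shown overlaps another motif searched. A match is a description of the sequence and shows neither binding nor a cause.
Hspa5 (chr2:34771840-34772089, plus strand): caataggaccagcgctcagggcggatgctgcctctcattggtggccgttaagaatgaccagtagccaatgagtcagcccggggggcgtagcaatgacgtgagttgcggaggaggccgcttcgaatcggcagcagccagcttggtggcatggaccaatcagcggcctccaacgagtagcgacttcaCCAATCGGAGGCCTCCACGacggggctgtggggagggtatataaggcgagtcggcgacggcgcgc
Hsp90b1 (chr10:86705445-86705694, minus strand): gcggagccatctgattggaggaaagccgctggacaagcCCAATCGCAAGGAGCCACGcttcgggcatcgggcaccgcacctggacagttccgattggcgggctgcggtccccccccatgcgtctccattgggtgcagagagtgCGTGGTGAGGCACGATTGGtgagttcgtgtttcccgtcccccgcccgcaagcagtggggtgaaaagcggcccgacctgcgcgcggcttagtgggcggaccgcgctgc
Canx (chr11:50325674-50325923, minus strand): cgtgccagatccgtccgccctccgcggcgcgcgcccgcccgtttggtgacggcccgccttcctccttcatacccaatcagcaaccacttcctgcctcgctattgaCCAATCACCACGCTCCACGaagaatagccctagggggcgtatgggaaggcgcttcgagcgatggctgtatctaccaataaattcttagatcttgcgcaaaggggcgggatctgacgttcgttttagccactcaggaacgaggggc

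Hspa5 (NCBI gene 14828), the ER chaperone BiP, had 487 and 347 CPM in the Fmr1 knockout and 230 and 247 CPM in the double knockout. The latter fell in the range of WT, which was 212 and 251 CPM, and the log2 difference was -0.78 ± 0.22 (SE). Hsp90b1, the ER form of HSP90, had 545 and 409 against 350 and 299 CPM. Canx and Calr, lectin chaperones of the ER, had 511 and 428 against 355 and 350 CPM, and 355 and 289 against 230 and 253 CPM. The groups did not overlap in any of the 4, and in each the Fmr1 knockout replicate 1 was the highest of the 4 libraries. Pdia4, a disulfide isomerase without the element in this window, had 80.4 and 59.0 against 48.4 and 44.5 CPM.

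Hspa8, the constitutive cytosolic HSP70, was the most abundant member with 5468 and 5465 CPM in the Fmr1 knockout against 4292 and 4103 CPM in the double knockout. Hsp90b1 and Hspa8 were the 2 members called in the authors' deposited table, at adjusted p-values of 0.0106 and 0.0102. Hsp90aa1 was at 2617 and 2079 against 2102 and 1590.2 CPM, and the mitochondrial pair Hspd1 and Hspe1 had log2 differences of -0.33 ± 0.10 and -0.56 ± 0.20. In footprints the list had a median of -0.0953, with 2 members lower at an unadjusted p under 0.05 and 0 called in edgeR. Hsp90b1 was the larger of the 2, at 410 and 377 against 306 and 281 CPM of footprints (log2 difference -0.42 ± 0.091, edgeR adjusted p = 0.0654). Apart from Hsp90b1 and Hspa8, the chaperones were named after their values were seen.

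Ribosomal protein mRNAs were lower in the double knockout in replicate 1 and hardly in replicate 2. Of 79 measured, 0 were higher and 30 lower at an unadjusted p under 0.05 (38.0% against 8.02% of all genes), 42 were lower with no overlap (53.2% against 22.7%), and 6 were lower in the authors' deposited table. The median log2 difference was -0.287, made of -0.537 in replicate 1 and -0.0299 in replicate 2. Their summed level was 16900 and 15100 CPM in the Fmr1 knockout and 11900 and 14600 CPM in the double knockout. Rpl5 had 403 and 353 against 277 and 273 CPM (authors' deposited table, adjusted p = 0.0114). Without Fmr1 knockout replicate 1 the count was 2, without double knockout replicate 1 it was 4, and without double knockout replicate 2 it was 58. Subunits of oxidative phosphorylation followed the same course, with a median of -0.204 (replicate 1 -0.402, replicate 2 -0.0167). Of them 2 were lower in the authors' deposited table, where 0.598% of genes were called lower. At an unadjusted p under 0.05, 13 of 74 were lower (17.6% against 8.02% of all genes) and 0 higher. That count was 2 without Fmr1 knockout replicate 1, 6 without double knockout replicate 1 and 38 without double knockout replicate 2. Uqcrb of complex III had 94.6 and 84.8 against 58.8 and 65.4 CPM, and Cox7a2 of complex IV 142 and 138 against 103 and 96.7 CPM. In footprints the medians of both lists were near 0, at 0.0613 and 0.00477. A correction for gene length left 24 lower ribosomal protein genes and 4 of oxidative phosphorylation. Translation factors had 9 of 43 lower (20.9% against 8.02% of all genes) and 1 higher (2.33% against 7.69%), with a median of -0.0804. Eif3e and Eif4a2 were both called lower in the authors' deposited DESeq2 table (adjusted p = 0.0262 and 0.0353).

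**Figure D3:**
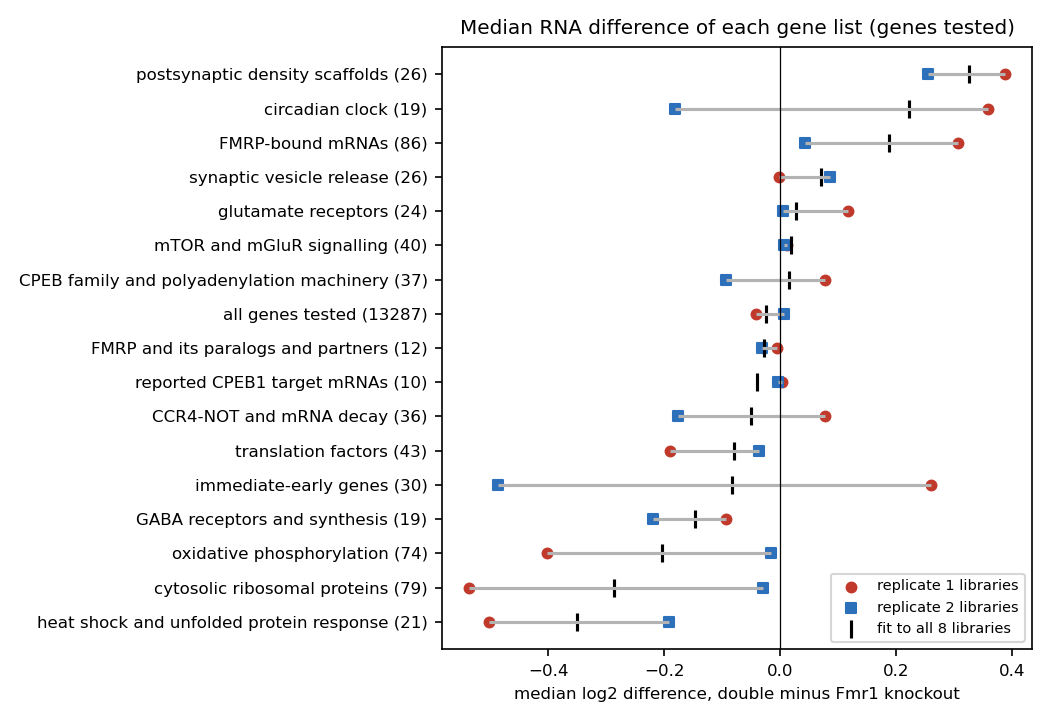
Median log2 difference (double minus Fmr1 knockout) of each gene list, with the number of genes tested in brackets, in the replicate 1 libraries (circles), the replicate 2 libraries (squares) and the fit to all 8 libraries (bars). Scaffolds are above 0 and chaperones below 0 in both replicates, whereas ribosomal proteins sit at -0.537 and -0.0299 and immediate-early genes change side.

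Differences varied with gene length over all genes, which were put into 4 classes of equal size by coding length. The shortest class had a median log2 difference of -0.253 in replicate 1 and 0.0401 in replicate 2, and the longest class 0.145 and -0.0374. Both replicates thus had a slope with length, in opposite directions. At an unadjusted p under 0.05 the shortest class had 99 genes higher and 362 lower, and the longest 463 higher and 206 lower. With an offset that removes a length trend from each library, 14 scaffold genes were still higher and 11 chaperones lower, and the scaffold median was 0.276. Under the same offset the median of ribosomal proteins was -0.161 in place of -0.287, that of oxidative phosphorylation -0.0618 in place of -0.204, and that of FMRP-bound mRNAs 0.0768 in place of 0.188. The part of length in the single-gene values was not tested otherwise.

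Clock genes were found on both sides. The core activators ARNTL and CLOCK act on E-boxes and drive Dbp, Nr1d1 and the Per and Cry genes, and the products DBP and HLF activate D-boxes while NFIL3 represses them. Of 19 measured, 6 were higher and 4 lower at an unadjusted p under 0.05 (31.6% and 21.1%, against 7.69% and 8.02% of all genes). The higher ones were Dbp, Bhlhe41, Per3, Hlf, Nr1d1 and Cry2, and the lower ones Nfil3, Arntl, Clock and Bhlhe40. The median was 0.222 in the fit, 0.359 in replicate 1 and -0.181 in replicate 2, so the list as a whole had no common direction. The count of higher genes was 1 without Fmr1 knockout replicate 1, 4 without its replicate 2 and 2 without double knockout replicate 1.

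Per3 and Bhlhe41, each with one of these elements in the 250 bases before the start (RefSeq, GRCm38.p6, both strands searched), are shown. The D-box TTATGTAA was found in 1 of 17 matched clock genes, Per3, which holds 2 copies, and in 0.819% of all promoters. The E-box CACGTG was found in 5 of 17 (Per1, Cry1, Tef, Bhlhe41 and Ciart) and in 6.02% of all promoters. The list holds genes known to be driven through these elements, so larger shares are partly built in. Shares of the list count genes, and the others count promoters. Of those 5 only Bhlhe41 was among the 6 higher genes. None was among the 4 lower ones, of which Bhlhe40 had no matched promoter and was not searched. Capitals mark the motif, and the motifs shown do not overlap.
Per3 (chr4:151044666-151044915, minus strand): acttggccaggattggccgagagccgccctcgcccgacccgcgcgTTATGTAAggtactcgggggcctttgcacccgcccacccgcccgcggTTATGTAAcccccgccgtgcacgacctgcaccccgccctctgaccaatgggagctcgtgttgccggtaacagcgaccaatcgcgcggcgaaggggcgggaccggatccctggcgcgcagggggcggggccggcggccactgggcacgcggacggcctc
Bhlhe41 (chr6:145865421-145865670, minus strand): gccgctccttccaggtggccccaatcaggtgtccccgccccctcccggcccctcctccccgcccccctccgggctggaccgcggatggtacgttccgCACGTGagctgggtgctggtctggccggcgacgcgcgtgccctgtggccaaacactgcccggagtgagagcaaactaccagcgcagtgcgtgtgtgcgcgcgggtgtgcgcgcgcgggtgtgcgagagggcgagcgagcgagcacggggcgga

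Dbp (NCBI gene 13170) had 45.5 and 54.1 CPM in the Fmr1 knockout and 84.1 and 85.7 CPM in the double knockout, a log2 difference of 0.78 ± 0.13 (SE), and the authors' deposited table gave 0.563 with an adjusted p of 0.000242. Its double knockout libraries lay above both WT libraries, at 76.4 and 70.9 CPM. Per3 had 34.4 and 46.0 against 63.7 and 54.6 CPM, and Bhlhe41, a repressor at E-boxes, 13.6 and 18.7 against 31.6 and 23.1 CPM. Hlf had 38.7 and 39.7 against 58.8 and 50.4 CPM, and Nr1d1, the repressor REV-ERB alpha, 129 and 144 against 180 and 164 CPM. Nfil3 had 19.1 and 17.8 CPM in the Fmr1 knockout and 12.9 and 8.43 CPM in the double knockout. Arntl had 67.5 and 59.2 against 46.8 and 50.1 CPM. For each of these 7 genes the groups did not overlap, which held for 20.3% of all genes on the higher side and 22.7% on the lower. Dbp and Nfil3 were named by the rule, the others after their values were seen. The hour at which tissue was taken is not in the labels, so time of day cannot be told apart from genotype. Nfil3 footprints were higher, not lower, in the double knockout, with 14.3 and 12.6 against 16.6 and 17.6 CPM (log2 0.35 ± 0.14, edgeR adjusted p = 0.267).

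Immediate-early genes, which neurons switch on within minutes of activity, differed in median between replicates and between assays. In RNA, 1 of 30 was higher and 4 lower at an unadjusted p under 0.05 (3.33% and 13.3%, against 7.69% and 8.02% of all genes). The median of -0.0838 combined 0.26 in replicate 1 with -0.487 in replicate 2. Arc, an effector of synaptic plasticity, had 111 and 196 CPM in the Fmr1 knockout and 227 and 67.4 CPM in the double knockout, so each number gave its own direction. Junb had 78.7 and 127 against 125 and 66.5 CPM. Fosl2 and Nr4a3, the 2 with the smallest p, had 25.5 and 25.1 against 18.1 and 14.3 CPM and 40.4 and 44.6 against 32.1 and 23.7 CPM. In footprints the median was 0.515, 23 of 30 were higher and 0 lower at an unadjusted p under 0.05 (background 7.6% and 8.25%), and 7 passed the adjusted threshold. Footprints of Arc rose by 0.92 ± 0.10 (SE), those of Ier5 by 0.89 ± 0.088 and those of Junb by 0.74 ± 0.086 (edgeR adjusted p = 0.0026, 0.000934 and 0.00278). Arc footprints were at 185 and 244 CPM against 390 and 410 CPM. Arc, Ier5 and Junb were named after their values were seen.

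**Figure D4:**
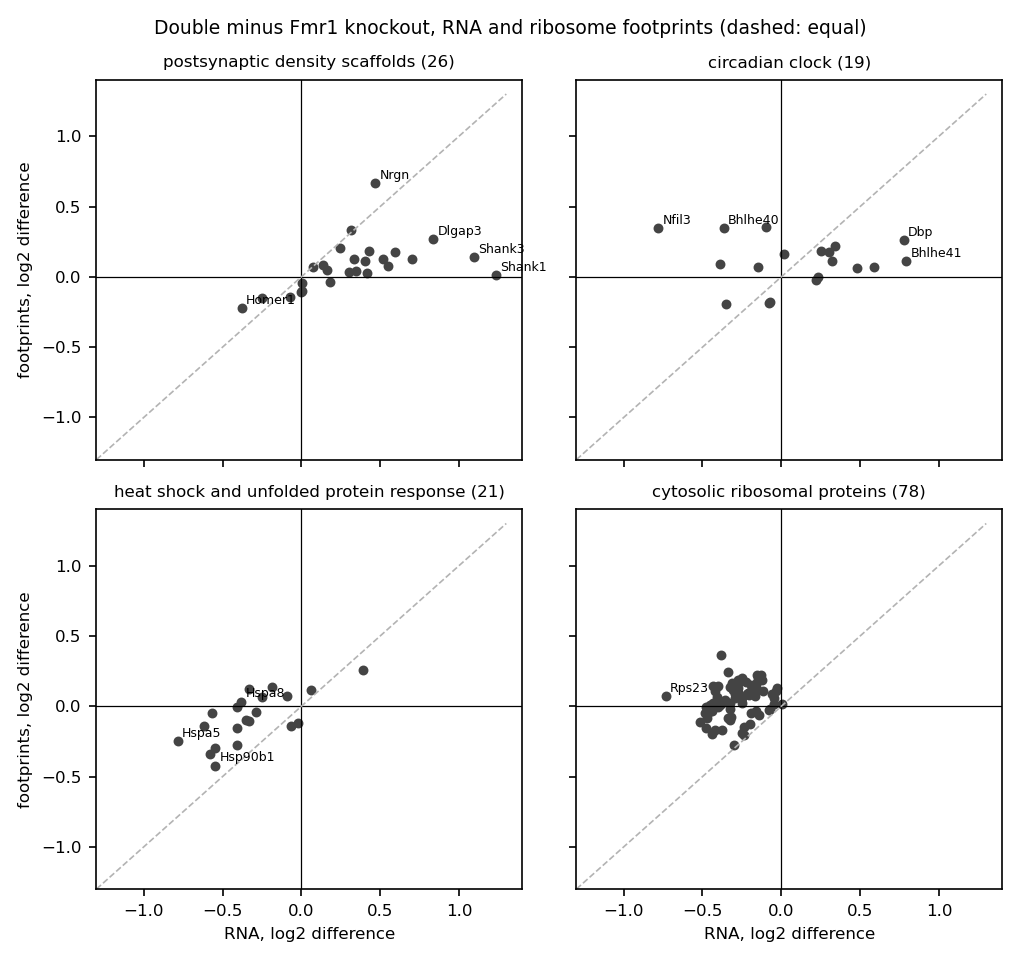
Log2 difference (double minus Fmr1 knockout) in RNA on the x axis and in ribosome footprints on the y axis for the members of 4 gene lists, with equality dashed. Scaffold and ribosomal protein genes spread along the RNA axis with footprint values near 0 (Shank1 at 1.23 and 0.011), Nrgn is high in both, and Nfil3 has opposite signs.

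The machinery through which CPEB1 acts came next. Of 37 genes of the CPEB family and the polyadenylation machinery, 1 was higher and 2 lower at an unadjusted p under 0.05 (2.7% and 5.41%). Over all genes these shares were 7.69% and 8.02%, which also stand beside the counts below. Of the 2 lower genes, 1 was Cpeb1 itself. The others were Sympk, a scaffold of the cleavage complex, with 137 and 165 against 219 and 185 CPM, and Pcf11, a termination factor, with 130 and 113 against 97.3 and 80.8 CPM. Sympk, and Gabra2 in the receptor list, were named after their values were seen. Of 10 measured mRNAs reported as CPEB1 targets, 1 was higher (Camk2a) and 0 lower, and the median was -0.041; Ndufv2 had 213 and 200 against 160 and 189 CPM. FMRP's paralogs and partners had 1 of 12 higher (Mov10, 5.02 and 6.85 against 12.5 and 7.79 CPM) and 3 lower, among them Fxr1 with 152 and 126 against 118 and 98.8 CPM. Among 36 genes of CCR4-NOT and mRNA decay, 1 was higher and 5 lower, with a median of -0.0503 and Cnot7 and Cnot2 at log2 differences of -0.38 ± 0.12 and -0.31 ± 0.12 (SE). Of the 20 tested genes nearest Cpeb1 on chromosome 7, 10 on each side, 3 were higher and 4 lower at that level, with a median of 0.0929. Mex3b, an RNA-binding ubiquitin ligase, had 24.9 and 25.2 CPM in the Fmr1 knockout and 43.8 and 44.7 CPM in the double knockout, and Tm6sf1 41.0 and 40.8 against 31.7 and 29.4 CPM. Mex3b stood above WT (31.3 and 24.5 CPM) and the Cpeb1 knockout (29.1 and 35.4 CPM) too.

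Receptor and signalling lists were mixed. Genes of GABA receptors and synthesis had 0 of 19 higher and 6 lower at an unadjusted p under 0.05 (31.6% against 8.02% of all genes). Their median was -0.147, with values of -0.0942 and -0.219 in the replicates. Gabrg1, a receptor subunit, had 30.4 and 30.5 against 19.7 and 17.0 CPM. Gabra2 had 112 and 110 against 97.1 and 80.3 CPM, and its footprints fell by 0.45 ± 0.075 on the log2 scale (edgeR adjusted p = 0.0278). Footprints of the list were lower too, where the median was -0.212 with 9 of 19 lower at an unadjusted p under 0.05 (8.25% of all genes). Glutamate receptors had 3 of 24 higher and 2 lower (12.5% and 8.33%, against 7.69% and 8.02% of all genes), with a median of 0.0274. Grik5, a kainate receptor subunit, had 182 and 260 against 303 and 356 CPM (authors' deposited DESeq2 table, adjusted p = 0.00256). Grik4 had 18.9 and 20.6 against 25.2 and 28.5 CPM. Vesicle release genes had 1 of 26 higher (3.85%) and 0 lower (median 0.0704), with Slc17a6 at a log2 difference of -0.36 ± 0.17. The mTOR and mGluR list had 5 of 40 higher and 4 lower (12.5% and 10.0%, median 0.0189). Rheb, the activator of mTORC1, was at 149 and 110 against 97.5 and 85.9 CPM.

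The difference between double and Fmr1 knockout was then set beside the difference between Cpeb1 knockout and WT, which shares no library with it. The interaction of the 2 losses passed an adjusted p of 0.05 for 274 genes (2.06%), 236 with a more positive (1.78%) and 38 with a more negative (0.286%) effect of Cpeb1 loss where Fmr1 was lost (edgeR). Among the 236, the median effect of Cpeb1 loss was 0.56 on the log2 scale without Fmr1 and -0.591 with it, and among the 38 it was -0.462 and 0.407. The genes were selected for a difference between these 2 effects, so opposite medians are partly built in. For Shank1 the values were 1.23 ± 0.32 (SE) in the comparison at hand and -1.14 for Cpeb1 loss in WT, an interaction of 2.38 with an adjusted p of 0.0405. Sox9 had 1.74 and -0.66 (interaction 2.40, adjusted p = 0.0385) and Wiz 1.15 and -0.98 (2.13, adjusted p = 0.0385). On the negative side Fabp7 had -0.97 and 0.85 (-1.82, adjusted p = 0.0376), Baz1a, a subunit of chromatin remodellers, -0.86 and 0.79 (-1.65, adjusted p = 0.0421), and the uncertain Pcdha6 -3.45 and 0.058. Of the lists, FMRP-bound mRNAs held 10 of the positive calls (86 tested), scaffolds 8 (26), clock genes 5 (19) and excitatory markers 3 (12). Chaperones held 6 of the negative calls (21 tested) and ribosomal proteins 3 (79). Some of these lists share genes, so the counts overlap. Without the replicate term 0 genes passed in edgeR, where 2449 had an unadjusted p under 0.05, and leaving out single libraries gave 0 to 1360: 0 without either WT library or double knockout replicate 1, 1 and 2 without Fmr1 knockout replicates 1 and 2, 20 and 1044 without Cpeb1 knockout replicates 1 and 2, and 1360 without double knockout replicate 2.

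Levels relative to WT were compared for the same lists. The Fmr1 knockout minus WT and the double knockout minus Fmr1 knockout share the Fmr1 knockout libraries, so opposite signs are partly built in and no correlation is given. Relative to WT, the scaffold median was -0.32 with Fmr1 lost and 0.0213 with both genes lost. In the same order chaperones had 0.424 and 0.04, ribosomal proteins 0.34 and 0.0444, oxidative phosphorylation had 0.186 and 0.0104, and FMRP-bound mRNAs -0.142 and 0.002. The Cpeb1 knockout had -0.28, 0.456, 0.304, 0.209 and -0.147 in that order. Both single knockouts are set against the same 2 WT libraries, so a shared sign is also partly built in, and the 5 lists were chosen with their values known. Clock genes had -0.13 and -0.169.

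Markers of other cells and regions were measured in the same libraries. Over all genes 7.69% were higher and 8.02% lower in RNA at an unadjusted p under 0.05, the level used for the counts here. Interneuron markers had a median of -0.0444 with 0 of 12 higher and 1 lower (Vip), and astrocyte markers -0.0657 with 1 higher and 2 lower of 12. Myelin markers had 2 of 15 higher, Olig1 (18.8 and 26.5 against 36.3 and 33.7 CPM) and Olig2, and a median of 0.0723. With no overlap, 2 of the 15 were higher (13.3% against 20.3% of all genes) and 4 lower (26.7% against 22.7%). Their summed levels were 1760 and 1790 CPM in the Fmr1 knockout and 1900 and 1770 CPM in the double knockout. Oligodendrocyte precursor markers had 2 of 7 higher, Sox10 (8.83 and 13.9 against 25.3 and 18.8 CPM) and Neu4, with summed levels of 92.9 and 124 against 124 and 115 CPM. Microglial markers had a median of -0.423 with 0 of 12 past an unadjusted p of 0.05 and sums of 111 and 121 against 89.4 and 107 CPM; their footprints had a median of -0.724 with 9 of 12 lower at an unadjusted p under 0.05 (8.25% of all genes) and 0 called in edgeR. Endothelial and pericyte markers had 2 of 10 higher (Pdgfrb the first) and a median of 0.11. Choroid plexus and ependyma markers had a median of -0.353, with -0.0641 in replicate 1 and -0.755 in replicate 2. With no overlap, 4 of 8 were lower (50.0% against 22.7% of all genes) and 0 higher. At the unadjusted level 1 was lower, Ttr, at 98.5 and 95.3 CPM in the Fmr1 knockout and 37.7 and 9.70 CPM in the double knockout. WT at 52.4 and 219 CPM shows the spread of that gene. Blood markers were low, with Hbb-bt, S100a8 and S100a9 at 0 in all 4 libraries, 1 of 4 tested lower and a median of 0.137. Striatal (12), hippocampal (10), thalamic (6) and olfactory bulb (7) markers had 0 past that level, with medians of 0.0784, 0.19, -0.0762 and 0.29. The 4 Y-linked genes had a median of -0.331, 2 of them (Ddx3y and Uty) lower. The part of these markers in other results was not tested.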

How the data were processed

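RNA-seq and ribosome profiling libraries of 4 genotypes, 2 per genotype and assay, were grouped by title. The authors deposited RSEM gene tables with expected counts, TPM scaled within each library, and lengths. The submitters' processing notes name cutadapt, Bowtie2, TopHat2, RSEM, DESeq2 and build mm10; how each was set is not given in the sources used here. The authors' deposited DESeq2 tables give a log2 change and p-values. Expected counts were rounded and tested in edgeR 4.0.16 (R 4.3.3, limma 3.58.1) with TMM, filterByExpr (minimum count 10), all 8 libraries of an assay and the replicate number as a term; an adjusted p under 0.05 counts as called. This test was run on simulated data for the RNA comparison (13155 genes). It recovered 25.8% of 66, 92.5% of 67 and 100% of 67 genes changed by 0.5, 1 and 2 on the log2 scale, with 13 false calls. The simulated libraries were drawn independently, without the likeness between libraries of different genotypes described above. The recovery there therefore need not hold for the real libraries. log2 CPM for correlations used a prior count of 2. Alternatives were DESeq2 1.42.0, RLE scaling, other filters, a length offset, 4 libraries only, no replicate term and leaving out each library. Genes were named by rule: per direction, the 10 smallest p among genes of at least 50 mean counts whose groups did not overlap, with the same sign in both numbers; 5 from the authors' table; 3 from the interaction; and 2 per list. Members and lists were chosen with earlier results of these data known. RefSeq promoters (GRCm38.p6) were matched by symbol.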

Additional observations from a re-analysis of the deposited data

Results flagged for a closer look

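Of the 108 genes named, 46 had an effect of Cpeb1 loss on RNA that differed between mice without Fmr1 (double minus Fmr1 knockout) and mice with it (Cpeb1 knockout minus WT), at edgeR adjusted p-values of 0.0376 to 0.0497. Over all genes 274 of 13287 (2.06%) passed, and 0 passed in edgeR without the replicate term. Many named genes were chosen by their difference between double and Fmr1 knockout, or by the interaction itself. Their larger share is therefore partly built in. The values that follow, for the 46, are the differences of the 2 log2 effects, 27 positive and 19 negative. Among scaffolds they were 2.38 for Shank1, 2.09 for Shank3, 1.54 for Dlgap3, 1.3 for Shank2, 1.16 for Iqsec2, 1.16 for Nrgn, 0.89 for Camk2a and 0.88 for Dlg4. Among clock genes they were 1.57 for Bhlhe41, 1.46 for Dbp, 1.13 for Per3, 1.11 for Hlf, 0.93 for Nr1d1 and -1.14 for Nfil3. Transcription and chromatin genes had 2.40 (Sox9), 2.13 (Wiz), 1.63 (Sox10), 1.59 (Fbrs), 1.33 (Cux2) and -1.65 (Baz1a). Signalling and receptor genes had 1.65 (Neurl1b), 1.49 (Nbl1), 1.46 (Arhgap33), 1.38 (Ltbp4), 1.32 (Dact3), 1.26 (Agap2), 1.24 (Neurl1a), 1.14 (Grik5) and -0.93 (Gpr22). Rasd2, on the striatum list, had 1.08, with log2 effects of 0.33 without Fmr1 and -0.75 with it. The striatal markers as a list had a median of -0.729 in the Cpeb1 knockout relative to WT, with summed levels of 790 and 559 CPM against 961 and 1260 CPM, and their part in the Rasd2 value was not tested. Chaperones had -1.50 (Hspa5), -1.21 (Pdia4), -1.06 (Hsp90b1), -0.86 (Calr), -0.82 (Hspa8), -0.73 (Ptges3) and -0.65 (Hsp90aa1). The rest were -3.5 for the uncertain Pcdha6, -1.82 for Fabp7, -1.22 for Rps23, -0.97 for Itgb1bp1, -0.88 for Rpl5, -0.85 for Uqcrb, -0.80 for Tmem184c, -0.77 for Serpini1 and -0.66 for Eif4a2.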

How the results depend on the processing

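The RNA comparison gave 0 calls with no replicate block, with RLE factors, with at least 10 counts in every library and with the length correction. It gave 36 with DESeq2, 2 with no count filter, 166 with only the 4 libraries and the replicate block, and 0 to 193 when each replicate was left out in turn. The interaction (274) gave 0 with no replicate block, 512 with DESeq2, 767 with no count filter, 422 with at least 10 counts in every library, 1144 with the length correction, and 0 to 1360 over the replicates left out. Footprints (46) gave 4 with no replicate block, 206 with DESeq2, 165 with no count filter, 75 with the length correction, 762 and 16 with only the 4 libraries with and without the replicate block, and 7 to 543 over the replicates left out. Which of these settings is right was not tested, and the cause of the changes was not tested. Replicate numbers were checked for pairing: the deviations of same-numbered RNA libraries correlated between -0.0446 (Cpeb1 and double knockout) and 0.293 (Fmr1 and Cpeb1 knockout), not all over 0.1, so the libraries may share only a number. Leaving out replicates turned the direction of 8 named genes, each without a call: log2 differences ran from -0.0063 to 0.183 (Fmr1), -1.18 to 0.0477 (Ctss), -0.312 to 0.0248 (Rgs5), -0.228 to 0.649 (Alas2), -0.887 to 0.799 (Hbb-bs), -1.16 to 0.708 (Arc), -0.717 to 0.452 (Junb) and -0.179 to 0.205 (Ier5, which was -0.0034 with only the 4 libraries and the replicate block). Of the list medians under all settings, 420 stayed within the spread and 60 moved. The spread was the SD of a list's 2 replicate medians, so lists whose replicates differ most can hardly move. All 30 medians stayed within it when a WT or Cpeb1 knockout library was left out, and those libraries are not part of this difference. The median SE of the RNA differences was 0.165 on the log2 scale. Counts of list members at an unadjusted p, with libraries left out or the length correction, and the genes named after their values were seen were chosen after seeing the data.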
